A study of Mus musculus with 6 samples.

Results

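Wnt ligands, the Frizzled receptors that bind them, and the secreted and intracellular proteins that restrain or relay their signal were followed in RNA sequencing of the mouse lens at E15.5, a stage of mid to late gestation. The set is a list of names, proposed with earlier results of these data known, and its rule uses no measured value. It holds every listed gene named as a Wnt (19), a Frizzled (Fzd, 10), a secreted Frizzled-related protein (Sfrp, 4) or a Dickkopf (Dkk, 4), together with Lrp5, Lrp6, Wls, Porcn, Apcdd1, Wif1, Axin1, Axin2, Nkd1, Nkd2, Lef1, Tcf7l1 and Tcf7l2, which makes 50 of the 41128 features in the files.

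The study compared lenses lacking β1-integrin, a matrix receptor subunit encoded by Itgb1, with wild-type lenses, to ask how the embryonic lens transcriptome differs. The conditional knockout (cKO) animals were homozygous for a floxed Itgb1 allele and also had the MLR10 transgene, which drives Cre in the lens. Their strain background was mixed. The wild-type animals were C57Bl/6, with no floxed allele or Cre transgene named, and their records repeat samples of an earlier series. Each group had 3 libraries described as biological replicates, each made from a pool of 30 lenses in cKO and of 75 lenses in wild type. Loss of Itgb1, the Cre transgene, the strain background and the size of the pool therefore differ together between the groups and cannot be told apart. The same holds for read depth, given below, and for the earlier series of the wild-type records.

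Wnt proteins are lipid-modified secreted ligands that bind a Frizzled together with the co-receptor Lrp5 or Lrp6. In the canonical branch this stabilises β-catenin, which joins nuclear factors of the Tcf and Lef family on target genes, whereas other branches act on the cytoskeleton and on planar cell polarity. In the lens, Wnt signalling is known from the epithelial layer and from the alignment of the elongating fibre cells.

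Levels are given as CPM (the reads of a gene per 1000000 reads counted in the library) when libraries are compared for the same gene, and as RPKM (CPM per kilobase of gene) when genes are compared with each other. Itgb1 itself was listed at 236, 275 and 262 CPM in cKO replicates 1, 2 and 3 and at 402, 424 and 448 CPM in wild-type replicates 1, 2 and 3. All 3 cKO libraries lay below all 3 wild-type libraries, and cKO kept 0.607 of the wild-type mean (log2 fold change -0.72, SE 0.077, limma adjusted p = 1.63e-05). Depth differed by group, from 20036554 to 28095318 reads per cKO library and from 10023049 to 11531139 per wild-type library, so that 1 read was worth 0.0356 to 0.0998 CPM and a floor of 3 reads lay at 0.107 to 0.299 CPM. The crystallins and other lens markers dominated all 6 libraries, with summed RPKM of 10 lens genes at 154445 to 176819 in cKO and 162641 to 176744 in wild type.

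Of the 50 genes, 33 reached 1 CPM in at least 3 libraries and were tested. Of these, 3 reached it in every library of 1 group but not of the other, Dkk1 and Dkk2 in cKO and Fzd8 in wild type. A gene is called here when its limma p-value, adjusted by Benjamini-Hochberg over all 11941 genes tested, was under 0.05, and fold changes are cKO minus wild type on log2(CPM + 1). Across all genes tested, 20.9% were called higher in cKO, 15.9% lower and 36.9% in either direction (2499 and 1904 genes, or 1886 and 2297 after correction for GC content and gene length). Among the 33 Wnt genes, 6 rose in cKO (Wls, Nkd1, Fzd6, Apcdd1, Fzd10 and Dkk1) and 1 fell (Wnt7a), or 18.2% and 3.03%, while 26 were not called. The share of risers was close to that of all genes in this fit. After correction for GC content and gene length it was 24.2% (8 genes) against 15.9% of all genes. With the same correction 1 gene fell (3.03%), against 19.3% of all genes. The number of fallers moved in other fits, with 3 by edgeR, 4 without wild-type replicate 1 and 1 to 6 over all alternatives. The 4 made 12.1%, against 14.1% of all genes in that fit. In the main fit and in every alternative the share of fallers lay under that of all genes. The median log2 fold change was 0.03 for the 33 genes and 0.03 for all genes tested. Groups did not overlap for 6 genes higher in cKO and 2 lower, against 26.9% and 21.2% of all genes tested (48.1% in either direction). The calls of Wnt7a, Wls, Nkd1, Fzd6 and Apcdd1 held in each of 20 alternative analyses, whereas Dkk1 was called in 8 and Fzd10 in 5 of the 19 alternatives that tested them.

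The promoters of the 3 genes with the smallest adjusted p are shown, beside that of Axin2, a widely used canonical target whose level was not called. Each run is the 250 bases before a RefSeq transcription start (GRCm38.p6), read 5′ to 3′ on the strand of the gene, with each CpG dinucleotide in capitals. Wnt7a lies at chr6:91411354-91411603 on the minus strand, where the last 10 bases fall in an annotated exon. Wls lies at chr3:159839400-159839649, Nkd1 at chr8:88527383-88527632 and Axin2 at chr11:108920099-108920348, all on the plus strand. The Nkd1 start used here is 6279 bases inside the gene as GENCODE M21 draws it.
Wnt7a: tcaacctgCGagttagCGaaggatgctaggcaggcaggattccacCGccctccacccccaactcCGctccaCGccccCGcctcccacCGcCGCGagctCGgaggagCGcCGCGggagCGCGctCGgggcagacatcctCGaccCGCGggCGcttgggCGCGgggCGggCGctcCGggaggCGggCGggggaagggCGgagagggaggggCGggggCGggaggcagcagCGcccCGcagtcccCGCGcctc
Wls: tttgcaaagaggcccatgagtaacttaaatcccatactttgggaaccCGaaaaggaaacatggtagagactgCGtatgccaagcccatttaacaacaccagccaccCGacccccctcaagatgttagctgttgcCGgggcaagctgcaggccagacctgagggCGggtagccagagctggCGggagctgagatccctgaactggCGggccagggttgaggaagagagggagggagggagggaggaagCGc
Nkd1: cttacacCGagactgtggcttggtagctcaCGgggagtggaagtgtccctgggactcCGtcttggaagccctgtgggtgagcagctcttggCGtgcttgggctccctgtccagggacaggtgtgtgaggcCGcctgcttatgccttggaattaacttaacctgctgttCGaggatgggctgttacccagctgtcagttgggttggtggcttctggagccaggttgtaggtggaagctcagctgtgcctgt
Axin2: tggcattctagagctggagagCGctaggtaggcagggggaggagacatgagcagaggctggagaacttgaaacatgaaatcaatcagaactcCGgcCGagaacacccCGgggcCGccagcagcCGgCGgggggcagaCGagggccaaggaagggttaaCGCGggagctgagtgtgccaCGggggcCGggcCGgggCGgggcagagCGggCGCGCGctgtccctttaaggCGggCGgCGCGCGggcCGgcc
The promoters of Wnt7a and Axin2 were rich in CpG, with 34 and 24 of them and a GC content of 77.6% and 69.2%. Those of Wls and Nkd1 held 8 and 6 CpG at 58.0% and 58.4% GC, near the median of all promoters of this length (6 CpG, 52.4% GC). The Tcf and Lef recognition letters CTTTGAA or CTTTGAT, searched on both strands, were in 3 of the 40 promoter windows found for 33 of the 50 genes (7.5%) and in 7.5% of 32851 windows of all genes. They were in none of the 4 windows printed here. The 3 windows that held them belonged to Dkk1, Wnt11 and Wnt5b. The Dkk1 match begins at -117 from its RefSeq start, within the last 169 bases of the window, which GENCODE M21 draws as exon. The Wnt5b match lies at a start 94961 bases inside the gene, within chr6:119449431-119449477 on the minus strand, printed with the matching letters in capitals.
Wnt5b: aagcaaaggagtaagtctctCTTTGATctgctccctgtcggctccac

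**Figure D1:**
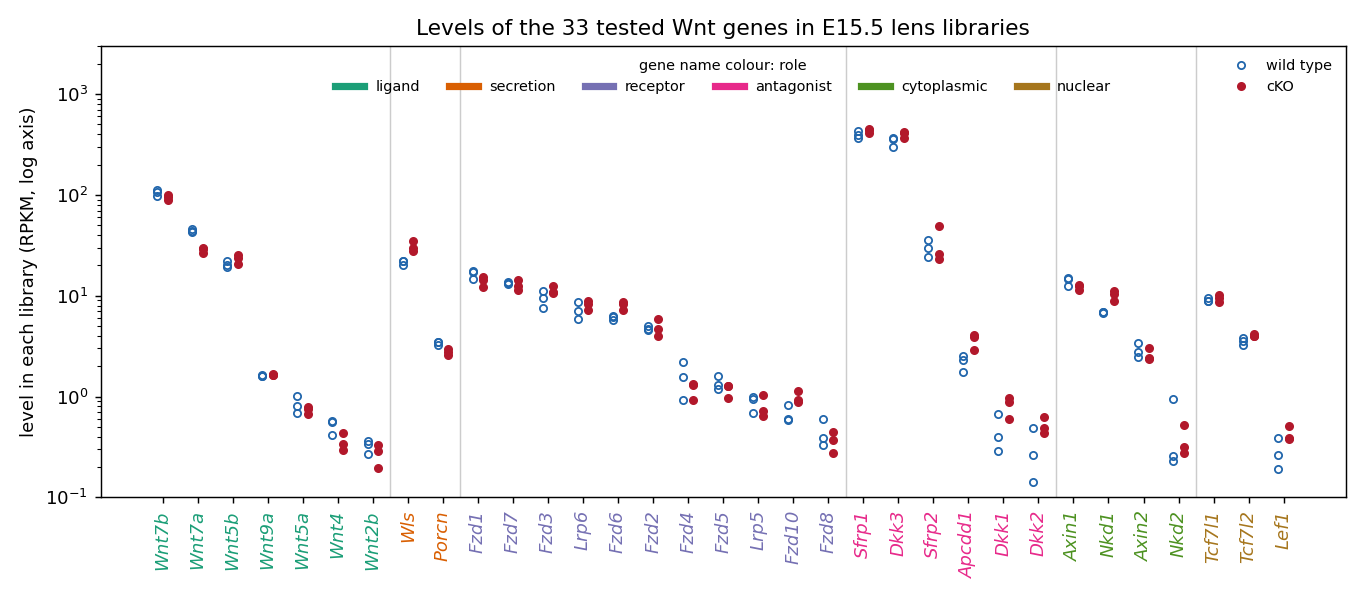
Levels of the 33 tested Wnt genes, with 1 point per library (open blue, wild type; filled red, cKO) on a log RPKM axis, ordered by role and then by level. Sfrp1 and Dkk3 stand above every ligand and receptor in all 6 libraries.

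The ligands were few in kind. Wnt7b, Wnt7a and Wnt5b made up 97.8% to 98.0% of the summed RPKM of the 19 Wnt genes in every library. Wnt7b, which can signal through the canonical branch, was the highest ligand with 395, 422 and 443 CPM in cKO and 430, 473 and 496 CPM in wild type (95.2 ± 5.36 and 106 ± 7.58 RPKM, SD, n = 3). The groups overlapped and it was not called (log2 fold change -0.15, SE 0.076, adjusted p = 0.141).

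Wnt7a (GRCm38 chromosome 6, 91363981 to 91411363, minus strand), a close relative of Wnt7b, was the 1 ligand that fell. It was listed at 94.6, 83.6 and 92.1 CPM in cKO and at 136, 145 and 140 CPM in wild type, or 28.4 ± 1.82 and 44.3 ± 1.38 RPKM. The highest cKO library lay below the lowest wild-type library, and the mean was 0.642 of wild type (log2 fold change -0.64, SE 0.075, adjusted p = 3.69e-05). Over all alternatives its adjusted p stayed between 6.44e-16 and 0.000799.

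Wnt5b, a ligand linked to non-canonical signalling, had 54.9, 63.4 and 67.3 CPM in cKO and 53.5, 51.4 and 58.5 CPM in wild type. The lowest cKO library fell inside the wild-type range, and the gene was not called (log2 fold change 0.18, SE 0.09, adjusted p = 0.139). Correction for GC content and gene length turned this into a call (0.28, adjusted p = 0.00826), as did leaving out cKO replicate 1 (0.26, adjusted p = 0.0355).

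The other 4 tested ligands were low and none was called. Wnt9a was the steadiest of them, between 5.29 and 5.59 CPM in all 6 libraries. Wnt5a, a non-canonical ligand, had 5.29 to 6.16 CPM in cKO and 5.38 to 7.88 in wild type. Wnt4 had 1.85, 1.43 and 1.25 CPM in cKO and 1.73, 2.37 and 2.39 in wild type, with 1 cKO library inside the wild-type range (log2 fold change -0.34, SE 0.16, adjusted p = 0.110). Wnt2b lay at 0.699 to 1.3 CPM over the 6 libraries.

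Wnt3, a canonical ligand, missed the expression threshold, since all 3 cKO libraries and wild-type replicate 2 were under 1 CPM. It had 8, 7 and 14 reads in cKO and 13, 10 and 12 in wild type, which at these depths is 0.399, 0.346 and 0.498 CPM against 1.13, 0.877 and 1.20 CPM. Its groups did not overlap. In an edgeR test of the reads without the threshold, added after these values were seen, its log2 fold change was -1.34 (edgeR adjusted p = 0.00735), where 13.1% of 19059 genes tested were called lower and 27.6% in either direction. Of the remaining 11 ligands, Wnt1, Wnt3a, Wnt8a, Wnt8b, Wnt10a and Wnt10b had 0 reads in all 6 libraries, and Wnt2, Wnt6, Wnt9b, Wnt11 and Wnt16 had fewer than 5 in each. For these 11 a level under the floor of 3 reads per library could not have been seen at this depth.

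**Figure D2:**
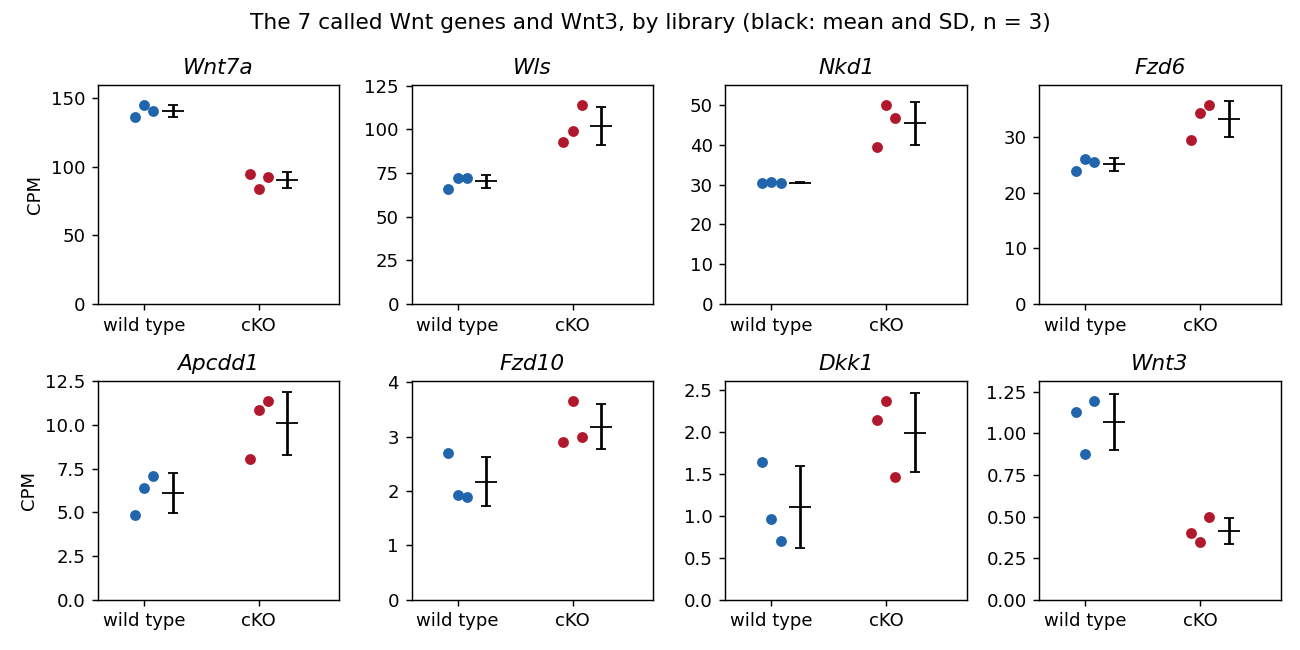
CPM in each library for the 7 called genes and Wnt3 (blue, wild type; red, cKO; black bars, mean and SD, n = 3; each axis starts at 0). The groups are separate for Wnt7a, Wls, Nkd1, Fzd6, Apcdd1, Fzd10 and Wnt3, while for Dkk1 wild-type replicate 1 lies above cKO replicate 3.

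Both genes of ligand secretion were tested. Wls (chromosome 3, 159839672 to 159938664, plus strand), the carrier that takes lipid-modified Wnts to the cell surface, rose. It had 92.7, 98.9 and 114 CPM in cKO and 66.0, 72.2 and 72.4 CPM in wild type, with every cKO library above every wild-type one (1.45 times the wild-type mean, log2 fold change 0.53, SE 0.087, adjusted p = 0.000535). Porcn, the acyltransferase that adds the lipid, had 8.23, 8.81 and 7.83 CPM in cKO and 10.4, 10.3 and 9.78 CPM in wild type. All its cKO libraries were below wild type, but the gene missed the threshold (log2 fold change -0.27, SE 0.10, adjusted p = 0.0608). It was called lower in 5 of 20 alternatives, TMM and RLE scaling and edgeR among them (edgeR adjusted p = 0.0301).

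Of the 12 receptors and co-receptors, 11 were tested. By limma 2 rose (18.2%) and 0 fell, against 20.9% and 15.9% of all genes tested. EdgeR, which called 40.0% of all genes, called 1 higher (Fzd6) and 0 lower. Fzd1 and Fzd7 had the highest levels, at 13.9 ± 1.62 and 12.7 ± 1.4 RPKM in cKO and 16.4 ± 1.49 and 13.4 ± 0.324 in wild type (SD, n = 3), and neither was called. Fzd1 had 59.9, 50.5 and 63.5 CPM in cKO and 61.1, 70.8 and 72.6 in wild type, so that 1 cKO library reached into the wild-type range (log2 fold change -0.23, SE 0.098, adjusted p = 0.0768). Without wild-type replicate 1, Fzd1 was called lower (-0.31, adjusted p = 0.0345).

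Fzd6 (chromosome 15, 39006034 to 39038188, plus strand), a receptor known for its part in planar cell polarity, rose. It had 29.5, 34.3 and 35.8 CPM in cKO and 23.8, 26.1 and 25.4 in wild type. The groups did not overlap (1.32 times wild type, log2 fold change 0.39, SE 0.092, adjusted p = 0.00547). Fzd3, which acts with Fzd6 in planar polarity, had 44.9, 52.2 and 46.3 CPM in cKO and 32.3, 40.0 and 46.7 in wild type, where wild-type replicate 3 lay within the cKO range. It was not called (0.28, SE 0.12, adjusted p = 0.0797), and without that library it was (0.40, adjusted p = 0.00754).

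Fzd10 was low, with 2.89, 3.66 and 2.99 CPM in cKO against 2.69, 1.93 and 1.90 in wild type. Its groups were separate by a small margin (log2 fold change 0.40, SE 0.15, adjusted p = 0.0489), and edgeR did not call it (edgeR adjusted p = 0.0657, range over the alternatives 0.00873 to 0.176). Leaving out any one of cKO replicates 1, 2 and 3 or wild-type replicates 2 and 3 ended this call. The co-receptor Lrp6 had 70.4, 87.7 and 80.4 CPM in cKO and 58.4, 68.6 and 85.1 in wild type. Its groups overlapped (0.18, SE 0.12, adjusted p = 0.288), and without wild-type replicate 3 it was called higher (0.32, adjusted p = 0.0237). Lrp5, the other co-receptor, lay between 6.29 and 9.99 CPM in all libraries and was not called. Fzd2, Fzd5 and Fzd8 were not called, with log2 fold changes of 0.03, -0.20 and -0.15. Fzd5 shares 17.0% of its 32-base words with transcripts of other genes, so its counts are uncertain. Fzd4, which is also the receptor of norrin in vessels, spread from 3.38 to 8.18 CPM within wild type alone and was not called (-0.29, SE 0.23, adjusted p = 0.368), but without wild-type replicate 1 it was called lower (-0.57, adjusted p = 0.0280). Fzd9 was untested at 0.247 to 0.520 CPM.

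**Figure D3:**
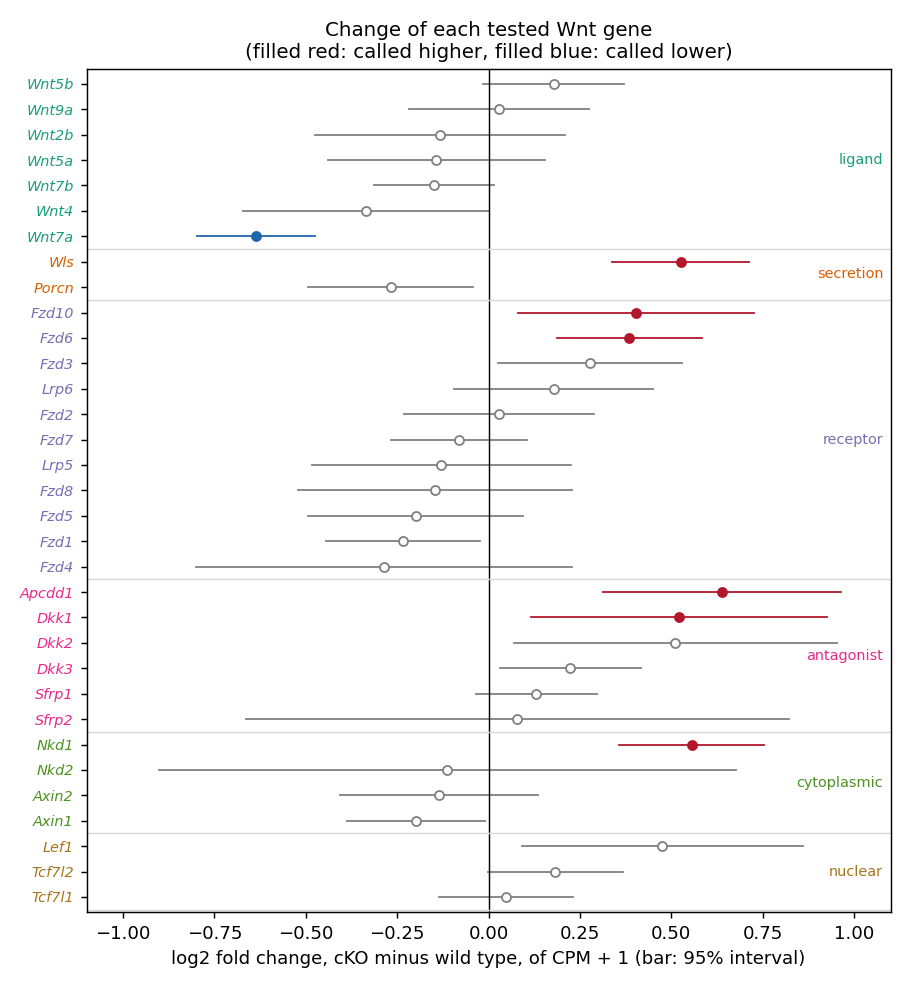
Log2 fold change (cKO minus wild type, on CPM + 1) of each of the 33 tested Wnt genes with its 95% interval, grouped by role; filled red points are called higher, the filled blue point is called lower and open grey points are not called. Wnt7a lies at -0.64, and the points of the 6 called risers lie between 0.39 and 0.64.

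Of the 10 secreted and membrane antagonists, 6 were tested. By limma 2 rose (Apcdd1 and Dkk1, 33.3%) and 0 fell, against 20.9% and 15.9% of all genes tested. EdgeR, which called 40.0% of all genes in either direction, called 1 higher (Apcdd1) and 0 lower. Levels of the antagonists spread widely, with Sfrp1 and Dkk3 the highest of all 50 genes and 4 antagonists untested. Sfrp1, which binds Wnts outside the cell, was first with 435 ± 16.9 RPKM in cKO and 398 ± 29.5 in wild type. Its 1816, 1947 and 1941 CPM in cKO overlapped the 1612, 1733 and 1870 CPM of wild type, and it was not called (log2 fold change 0.13, SE 0.077, adjusted p = 0.200). Dkk3, a divergent Dickkopf whose part in Wnt signalling is less clear, followed with 401 ± 29.7 and 344 ± 37.7 RPKM. It had 1231, 1386 and 1417 CPM in cKO and 1009, 1209 and 1244 CPM in wild type, where only cKO replicate 1 lay within the wild-type range (0.22, SE 0.09, adjusted p = 0.0659). Dkk3 was called higher without cKO replicate 1 (0.29, adjusted p = 0.0333), without wild-type replicate 3 (0.28, adjusted p = 0.0266) and after correction for GC content and length (0.24, adjusted p = 0.0203).

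Sfrp2, another Wnt-binding antagonist, varied more within cKO than between the groups, at 56.3, 106 and 50.1 CPM against 76.7, 52.1 and 63.6 CPM in wild type. It was not called (0.08, SE 0.30, adjusted p = 0.867), and it shares 13.0% of its words with other transcripts. cKO replicate 2, where it was highest, also had the highest summed level of 8 neural retina markers among the cKO libraries (3.52 RPKM against 1.14 and 2.18). Wild-type replicate 2 had a sum of 3.76 against 0.405 and 0.169 in the other wild-type libraries, and its Sfrp2 was the lowest in wild type. Of the 8 retina markers 7 missed the expression threshold, and 1 of these was at 0 in all libraries. The part of retinal RNA in the Sfrp2 levels was not tested.

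Apcdd1 (chromosome 18, 62922231 to 62961179, plus strand), a membrane protein that binds Wnt and Lrp5 and is itself a known canonical target, rose. Its values were 8.04, 10.8 and 11.4 CPM in cKO and 4.86, 6.40 and 7.08 CPM in wild type, with no overlap (1.65 times wild type, log2 fold change 0.64, SE 0.15, adjusted p = 0.00518). On the log2(CPM + 1) scale this was the highest change among the 33 genes. That scale understates low genes, and Dkk1 and Dkk2 had higher ratios of mean CPM, 1.81 and 1.74.

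Dkk1, the Lrp6-blocking Dickkopf, was low, with 2.15, 2.37 and 1.46 CPM in cKO and 1.65, 0.964 and 0.698 in wild type. It passed the expression threshold through cKO, where it was higher. The groups overlapped, and the limma call (0.52, SE 0.19, adjusted p = 0.0437) was not made by edgeR (edgeR adjusted p = 0.0713, range over the alternatives 0.0104 to 0.157). The call ended without cKO replicate 1 or 2 and without wild-type replicate 2 or 3. Dkk2, which acts on Lrp6 in a manner that depends on context, had 1.80, 2.33 and 1.60 CPM in cKO and 0.520, 0.964 and 1.80 in wild type. It was not called (0.51, SE 0.20, adjusted p = 0.0660), but was without wild-type replicate 3 (0.74, adjusted p = 0.00501). Sfrp4, Sfrp5, Dkk4 and Wif1 were untested, none above 0.599 CPM in any library.

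Sums over genes, chosen after the levels were seen and given without a test, set these roles side by side. The 19 ligands summed to 143, 149 and 158 RPKM in cKO and to 164, 176 and 183 RPKM in wild type, with no overlap. Wnt7a, called lower, made up 17.7% to 20.8% of this sum in cKO and 24.2% to 26.2% in wild type, while Wnt7b and Wnt5b were not called. The ratio of Wnt7b to Wnt7a was 3.00, 3.63 and 3.45 in cKO and 2.27, 2.35 and 2.55 in wild type. The 10 antagonists summed to 813, 913 and 895 RPKM in cKO and 708, 784 and 831 in wild type, and these ranges did overlap. Summed antagonist RPKM was 5.67 to 6.12 times summed ligand RPKM in cKO and 4.31 to 4.55 times in wild type. The ligand sum and both ratios include Wnt7a, so they are not results separate from its fall. Sfrp1 and Dkk3, neither of them called, made up 94.0% to 96.8% of the antagonist sum. The 12 receptors summed to 59.8 to 67.1 RPKM in cKO and 56.2 to 67.5 in wild type, of which Fzd1 and Fzd7 took 39.3% to 45.0% and 46.3% to 49.6%.

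**Figure D4:**
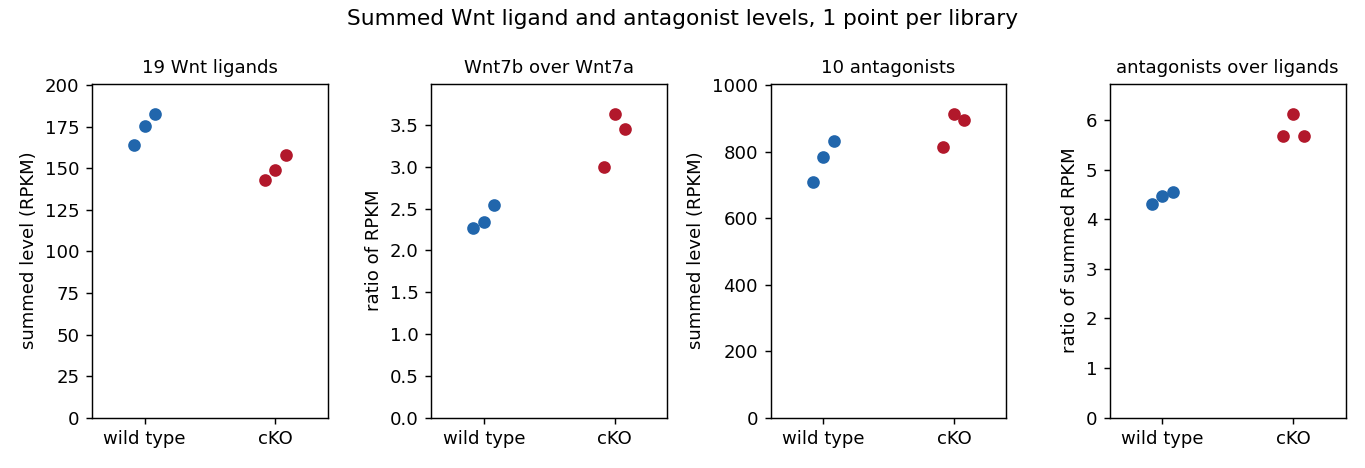
Summed RPKM of the 19 ligands and of the 10 antagonists and the ratios Wnt7b over Wnt7a and antagonists over ligands, 1 point per library (blue, wild type; red, cKO; axes start at 0). The groups are separate in the ligand sum and in both ratios, all of which include Wnt7a, and overlap in the antagonist sum.

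Among the 4 cytoplasmic regulators, Nkd1 rose. Nkd1 (chromosome 8, 88521354 to 88594884, plus strand) binds Dishevelled and restrains Wnt signalling, and is itself a known feedback target. It had 39.5, 50.1 and 46.9 CPM in cKO, while the wild-type libraries lay close together at 30.4, 30.6 and 30.5 CPM. The groups did not overlap (1.49 times wild type, log2 fold change 0.56, SE 0.092, adjusted p = 0.000551), and over the alternatives the adjusted p ranged from 9.08e-09 to 0.00421. Axin2, the feedback scaffold of the β-catenin destruction complex, had 13.3, 16.7 and 13.0 CPM in cKO and 15.3, 13.7 and 18.6 CPM in wild type. These ranges overlapped and the fold change had a 95% interval from -0.41 to 0.14 (adjusted p = 0.427, 0.171 to 0.910 over 20 alternatives). Nkd1 and Axin2, both known feedback targets, thus differed in call, but the difference between their changes was not tested.

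Axin1, the constitutive scaffold, had 43.8, 48.9 and 47.9 CPM in cKO and 48.3, 55.8 and 58.0 CPM in wild type. Only wild-type replicate 1 lay within the cKO range, and the gene was not called (-0.20, SE 0.088, adjusted p = 0.0937), but 9 of 20 alternatives called it lower, including edgeR (edgeR adjusted p = 0.0254) and the fit without wild-type replicate 1 (-0.28, adjusted p = 0.0296). Nkd2, the paralog of Nkd1, was low and uneven, at 1.5, 2.47 and 1.32 CPM in cKO and 1.21, 4.47 and 1.1 in wild type. Its high libraries were replicate 2 of each group, which are the same libraries that were high in retina markers. Of the other cKO libraries, replicate 3 had the higher retina sum (2.18 against 1.14 RPKM) and the lower Nkd2. The part of retinal RNA in the Nkd2 levels was not tested.

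None of the 3 nuclear factors was called. Tcf7l1, mostly a repressor of Wnt targets, lay at 34.0, 40.1 and 37.3 CPM in cKO and 37.6, 35.1 and 34.8 CPM in wild type (0.05, SE 0.085, adjusted p = 0.687). Tcf7l2, a main effector of canonical signalling, had 34.5, 36.5 and 34.5 CPM in cKO and 33.6, 30.8 and 28.4 CPM in wild type, with no overlap but a change under the threshold (0.18, SE 0.085, adjusted p = 0.110). Lef1, a factor that is also a canonical target, had 3.29, 4.40 and 3.38 CPM in cKO and 1.65, 3.33 and 2.29 CPM in wild type. It just missed the threshold (0.48, SE 0.18, adjusted p = 0.0515) and was called higher in 6 of 18 alternatives, among them the fit without wild-type replicate 2 (0.66, adjusted p = 0.0147). Lef1 shares 13.5% of its words with other transcripts.

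The list of 82 other Wnt pathway genes, which holds none of the 50, had 65 tested genes, of which 11 were higher (16.9%) and 13 lower (20%). These shares were near the 20.9% and 15.9% of all genes, and the median log2 fold change was -0.01. Without cKO replicate 1 or wild-type replicate 3 the number lower was 8 (12.3%, against 12.1% and 13.1% of all genes). The 6 genes with the smallest adjusted p went in both directions. Btrc, a ubiquitin ligase subunit that marks β-catenin for destruction, was at 60.1 ± 0.433 CPM in wild type and fell to 39.1 ± 1.41 CPM in cKO (-0.61, SE 0.074, adjusted p = 5.23e-05). Ctbp1, a corepressor, fell from 113 ± 3.02 to 84.7 ± 5.24 CPM (-0.42, adjusted p = 0.000866). Pygo1, a nuclear cofactor of β-catenin, rose from 14.8 ± 0.733 to 23.3 ± 1.36 CPM (0.62, adjusted p = 0.000232). Tnfrsf19, a receptor known as a Wnt target, rose from 14.6 ± 2.12 to 24.6 ± 2.17 CPM (0.72, adjusted p = 0.000359). Prickle2, a planar polarity protein, rose from 0.786 ± 0.319 to 2.79 ± 0.392 CPM (1.1, adjusted p = 0.000277), having passed the expression threshold through cKO alone. Gpc4, a cell-surface heparan sulphate proteoglycan, rose from 23.5 ± 1.00 to 34.0 ± 1.34 CPM (0.52, adjusted p = 0.000408). Each of these values is a mean ± SD over 3 libraries.

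The 6 most abundant genes of that list by RPKM began with β-catenin itself. Ctnnb1 had 790, 856 and 834 CPM in cKO and 910, 963 and 983 CPM in wild type, without overlap, and fell by 0.20 on the log2 scale (SE 0.069, adjusted p = 0.0336). Ccnd1, the cell cycle regulator cyclin D1 and a known target in several tissues, had 126, 184 and 159 CPM in cKO and 198, 203 and 238 CPM in wild type (-0.46, SE 0.12, adjusted p = 0.0132). The small GTPase Rhoa rose (0.29, adjusted p = 0.00764), the kinase Csnk1g2 fell (-0.23, adjusted p = 0.0384), and the GTPase Rac1 and the R-spondin Rspo1 were not called (0.07, adjusted p = 0.415, and -0.11, adjusted p = 0.314). Ctnnb1, Ccnd1, Rhoa and Rac1 share 14.6%, 23.3%, 10.3% and 53.5% of their words with other transcripts, so their counts are uncertain.

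Markers of cells around the lens also differed between the groups. In pooled tissue, fewer cells of a type and less RNA per cell cannot be told apart, and the same holds for more. Beside the counts of markers that follow, 20.9% of all genes tested were called higher in cKO and 15.9% lower. For 48.1% of all genes tested the groups did not overlap, in either direction. Of 15 endothelial markers 11 were called higher and 0 lower, and their summed level was 66.8 to 76.4 RPKM in cKO and 43.5 to 51.6 in wild type. Cdh5 and Cldn5, both of endothelial junctions, rose by 0.63 and 0.59 on the log2 scale (adjusted p = 0.00027 and 0.000861), while the third most abundant of these markers, Eng, was not called (0.18, adjusted p = 0.128). Of 7 pericyte markers 5 were higher, 1 of which passed the expression threshold through cKO alone (26.0 to 30.1 against 14.1 to 15.9 RPKM in sum), led by Rgs5 at 19.2 ± 1.52 against 9.09 ± 0.624 RPKM. Of 12 macrophage markers in the files 8 were tested and 8 were higher, 4 of which passed the expression threshold through cKO alone (13.3 to 17.7 against 5.83 to 5.86 RPKM in sum). C1qa, a complement gene of macrophages, stood at 3.67 ± 0.598 against 1.02 ± 0.130 RPKM. Of 11 periocular mesenchyme markers 5 were tested and 4 were higher, 1 of which passed through cKO alone (5.38 to 8.44 against 2.86 to 3.15 RPKM in sum), with Foxc1, Col1a2 and Col3a1 at 0.86, 1.11 and 1.28 on the log2 scale (adjusted p = 0.00011, 9.7e-05 and 0.0015) and Foxc2 at 0 in all libraries. These 4 marker sums moved in the direction of Wls, Nkd1, Fzd6 and Apcdd1 and opposite to Wnt7a. Their part in these results was not tested.

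The remaining marker lists did not separate the groups in sum. Of 5 red cell markers 4 were tested, of which Hba-a1 and Slc4a1 rose (0.81 and 1.1, adjusted p = 0.0136 and 0.0015) and Hba-a2 fell (-0.50, adjusted p = 0.0452), and the sums were 116 to 206 RPKM in cKO and 121 to 147 in wild type. Of 7 markers of pigment epithelium and melanocytes 2 were tested and not called, with Rpe65 at 0 throughout. None of 5 markers of surface ectoderm and cornea reached the threshold. Of the 10 lens markers 0 were higher and 2 lower. These were Mip, a fibre cell membrane channel (-0.21, adjusted p = 0.0320), and Foxe3, a transcription factor of the lens epithelium. Foxe3 had 113, 138 and 106 CPM in cKO and 154, 127 and 180 CPM in wild type, which overlapped (-0.37, SE 0.13, adjusted p = 0.0424). Foxe3 moved in the direction of Wnt7a, and its part in that result was not tested. The other 8 lens markers were not called, among them the transcription factors Pax6 (-0.02, adjusted p = 0.894) and Prox1 (-0.05, adjusted p = 0.633).

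**Figure D5:**
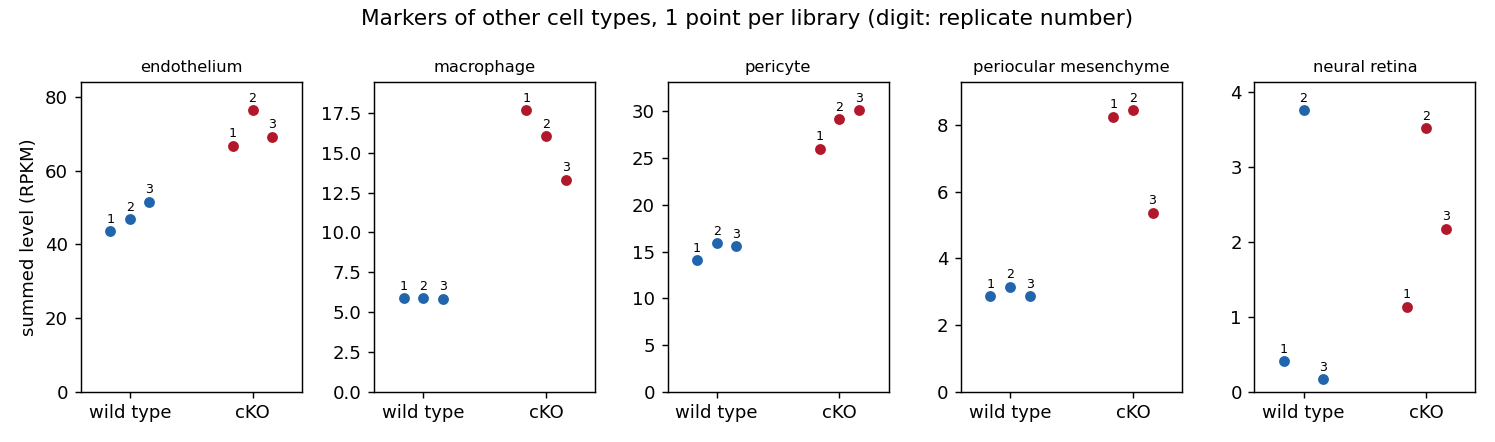
Summed RPKM of the markers of 5 other cell types, 1 point per library with its replicate number (blue, wild type; red, cKO; axes start at 0). Endothelial, macrophage, pericyte and periocular mesenchyme sums are higher in every cKO library than in any wild-type library, and the neural retina sum is highest in replicate 2 of both groups.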

How the data were processed

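RNA was extracted with a column kit from pooled lenses, poly(A)-selected, made into libraries with a TruSeq kit that does not mark strand, and read single-end, per the labels' protocols. Reads of overlapping genes on opposite strands therefore cannot be told apart. Per the file headers, the deposited values are CPM and RPKM per gene, as the authors computed them. EdgeR and GRCm38 are named in the submitters' processing notes. For the aligner, the counter and the annotation release, names were not given in the sources used here. In every library, 100% of CPM values were whole multiples of 1 read (tolerance 0.03 reads), so reads were recovered for the count tests.

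The main test was limma-trend (limma 3.58.1, R 4.3.3) with robust empirical Bayes moderation on log2(CPM + 1), group as the only term, genes reaching 1 CPM in 3 or more libraries, Benjamini-Hochberg adjustment over all genes tested and a threshold of 0.05. A pseudocount of 1 understates the change of low genes. P-values measure the spread between the pools. Alternatives were TMM and RLE scaling, other filters and a pseudocount of 0.1, edgeR 4.0.16, DESeq2 1.42.0 and limma-voom on recovered reads, a replicate block, correction for GC content and length, leaving out each library, and dropping genes with 10% or more of their 32-base words in another gene's transcripts. EdgeR without the expression filter and edgeR with the block were added after the data were seen.

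The members and lists were chosen with earlier results of these data known. Named are Itgb1, every member, of the other pathway genes the 6 with the smallest adjusted p and the 6 with the highest mean RPKM, and of each marker list genes among the 3 highest by mean RPKM. Foxc2 and Rpe65, at 0 in every library, and Slc4a1, Mip, Foxe3, Pax6 and Prox1 were named after their values were seen. The result of 1 marker gene is not reported here. No libraries were repeats of each other (chi-square per gene of 4.25 to 18.7 within groups). On counts simulated for cKO against wild type over 11844 genes, the main test recovered 87% of 100 genes changed 1.5-fold and 96% of 100 changed 2-fold, with 16 of 199 calls false. Changed genes were drawn only from those with a mean of at least 2 CPM, so recovery of lower genes, such as Dkk1, was not measured. Far fewer genes were changed than in the data, where 36.9% of genes tested were called. Coordinates are from GENCODE M21 (GRCm38) and promoters from RefSeq (GRCm38.p6), which gave windows for 33 of the 50 genes.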

Additional observations from a re-analysis of the deposited data

How the results depend on the processing

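Over 20 alternatives, 105 of 120 counts of calls stayed within 1.5 times the reported value and 15 did not. Of 669 values of the tested Wnt genes and Itgb1, 598 kept the status of the main fit, which for most genes was not called. A call was lost in 25, gained in 46 and reversed in 0, while 12 values that were called in neither fit changed sign. The number of Wnt genes called higher (6) was 10 with a replicate block (30.3%, against 24.4% of all genes). It was 4 to 8 with each library left out (12.1% to 24.2%, against 14.6% to 20.3% of all genes). The number called lower (1) was 3 under TMM or RLE scaling, edgeR, limma-voom or the replicate block, 2 under DESeq2, the block with GC and length correction or no filter on low values (44 genes tested), 4 by edgeR without the filter (44 tested), 6 by edgeR with the replicate block, and 1 to 4 with each library left out, the 4 without wild-type replicate 1. By edgeR with the block the share called lower was 18.2%, against 23.0% of all genes. By edgeR without the filter it was 9.09%, against 13.1%, and without wild-type replicate 1 it was 12.1%, against 14.1%. In every alternative it lay under the share of all genes. Of the other pathway genes, 11 were higher, against 17 with the replicate block (26.2%, against 24.4% of all genes) and 8 to 14 with each library left out. There were 13 lower, against 8 to 14 with each library left out. The 8 came without wild-type replicate 3 or cKO replicate 1 (12.3%, against 13.1% and 12.1% of all genes). With the block, Dkk2, Dkk3, Fzd3 and Lef1 were called higher (limma adjusted p = 0.0185, 0.00495, 0.00934 and 0.0105) and Fzd1 and Axin1 lower (0.0181 and 0.0427). With the block and the GC and length correction Fzd4 was lower (limma adjusted p = 0.0347), as with the block by edgeR (edgeR adjusted p = 0.0478). Same-numbered libraries deviated from their group means with correlations of 0.33, -0.03 and 0.15, and cKO replicate 2 correlated best with wild-type replicate 3, so the numbers were not taken to pair the samples. Over all genes, 2499 were higher and 1904 lower; correction for GC content and length turned this split to 1886 higher and 2297 lower, edgeR gave 2388 and 2388, and leaving out each library gave 1714 to 2400 and 1322 to 1922. Depth limits the 17 untested genes of the 50, which held at most 14 reads in any library.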
